A study of Mus musculus with 2 samples.

Results

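This account concerns open chromatin inside repeat-masked sequence of the mouse hippocampus. Its members are the DNase-seq peaks of replicate 1 that overlap a replicate 2 peak by at least 1 bp and of which at least 90% of bases stand in lower case (soft-masked) in the mm10 reference. There were 148 such regions among 55952 shared peaks (0.265%, 95% interval 0.224 to 0.311%) and among 93545 peaks of replicate 1 in all. The data are 2 DNase-seq libraries of 1 group, numbered as biological replicates 1 and 2, from B6CASTF1/J mice that the labels call male and 25 days of age, with the tissue given as layer of hippocampus. B6CASTF1/J is a first-generation cross of the C57BL/6J laboratory strain with the wild-derived CAST/EiJ strain, and no genotype, allele or treatment beyond it is labelled. Replicate 1 had 93545 peaks with 49304 in the stricter list, and replicate 2 had 79144 with 42855. No second group exists, so no condition was compared, and the labels do not say whether the libraries came from separate animals. Peaks at sex-linked genes, given before the results, differed between them. Peak values are the authors' signal per library (scaling not given in the sources used here), and the number of cuts behind a peak is unknown.

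Much of the mouse genome descends from transposable elements: short interspersed elements (SINEs) copied through RNA, long interspersed elements (LINEs) that code for their own reverse transcriptase, and elements with long terminal repeats. Tandem arrays form another class, among them the satellites around centromeres and the clusters of 5S ribosomal RNA genes. Most copies are packed in closed chromatin marked by DNA methylation and histone H3 lysine methylation, and a minority is known to carry sites for transcription factors. Mouse SINEs of the B2 type are known to carry a motif of CTCF, a zinc finger protein that shapes chromosome loops. Reads from near-identical copies are hard to assign to 1 place (the treatment of such reads: not given in the sources used here).

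Before the results, 2 facts on the libraries need stating. Replicate 2 went against its male label: it had 3 peaks within 1 kb of the start of Xist, the RNA of the inactive X chromosome, where replicate 1 had 0. It also had no promoter peak at the Y-linked genes Ddx3y, Uty, Kdm5d and Eif2s3y, where replicate 1 had values of 0.707, 0.678, 0.424 and 0.890. It is therefore called the library labelled male replicate 2 wherever a direction between the libraries is drawn. For the tissue label, promoter peaks in both libraries stood at 14 of 14 pan-neuronal, 11 of 12 excitatory neuron and 9 of 10 dentate granule cell genes, against 7 of 12 astrocyte, 2 of 12 microglia and 1 of 10 liver genes. Inhibitory neuron genes had them at 7 of 14, oligodendrocyte lineage genes at 5 of 12 and endothelial and mural cell genes at 3 of 11. Housekeeping genes had them at 13 of 13 and repeat silencing genes at 25 of 25, so a full count is not particular to neuronal genes.

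A family of sequences with footprints over a shared word comes first. A group of 7 members shared related sequence, lay in 7 different host genes and held the 8-base word TGCCCTCT, part of a CTCF-type motif. They are printed 5′ to 3′ on the strand that reads this word, from the GRCm38.p6 RefSeq genome (the mm10 build), with capitals at bases inside a footprint of at least 1 library. A footprint is a short stretch with fewer cuts than its surroundings, as called by the authors.
Epb41l1 intron, chr2:156498081-156498167, plus strand: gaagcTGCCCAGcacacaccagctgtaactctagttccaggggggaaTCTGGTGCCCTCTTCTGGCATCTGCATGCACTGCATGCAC
Adgra1 intron, chr7:139861561-139861700, plus strand: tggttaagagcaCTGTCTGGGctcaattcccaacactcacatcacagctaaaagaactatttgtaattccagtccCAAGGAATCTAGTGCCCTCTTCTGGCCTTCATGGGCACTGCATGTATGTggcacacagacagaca
Arfgef3 intron, chr10:18602201-18602340, plus strand: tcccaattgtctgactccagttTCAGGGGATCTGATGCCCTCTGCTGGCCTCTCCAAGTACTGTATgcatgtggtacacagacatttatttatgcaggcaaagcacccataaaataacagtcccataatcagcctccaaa
Jph3 intron, chr8:121751559-121751691, plus strand: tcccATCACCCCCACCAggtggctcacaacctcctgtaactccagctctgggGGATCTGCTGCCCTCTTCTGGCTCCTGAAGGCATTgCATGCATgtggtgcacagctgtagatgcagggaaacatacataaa
Cnst intron, chr1:179623788-179623876, minus strand: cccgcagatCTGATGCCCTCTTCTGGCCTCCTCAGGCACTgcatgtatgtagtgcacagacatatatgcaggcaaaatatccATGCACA
Gm47360 noncoding gene, chr13:59314593-59314657, plus strand: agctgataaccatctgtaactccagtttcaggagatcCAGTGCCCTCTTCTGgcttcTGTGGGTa
Pdpn intron, chr4:143280347-143280415, plus strand: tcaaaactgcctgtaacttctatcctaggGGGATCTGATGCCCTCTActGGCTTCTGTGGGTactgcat
The word stands in capitals in all 7 sequences.

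The peak values of these 7 members fell into a higher and a lower set. Epb41l1 (which codes for a protein linking the neuronal membrane to the cytoskeleton) had values of 1.11 in replicate 1 and 1.33 in replicate 2. Adgra1 (an adhesion G protein-coupled receptor) had 1.27 and 1.02. Arfgef3 had 1.05 and 1.01. The Jph3 peak, in the gene of a junctophilin that ties the endoplasmic reticulum to the neuronal plasma membrane, had 0.961 and 0.935. These 4 lay at or above the median of other shared peaks, 0.961 in replicate 1 and 0.864 in replicate 2. The remaining 3 were lower, with 0.523 and 0.587 in Cnst, 0.459 and 0.496 in the noncoding gene Gm47360, and 0.410 and 0.541 in Pdpn. Of the 7 members, only 1, at Arfgef3, was in both stricter peak lists. The Epb41l1 peak was in that of replicate 2 alone and the Adgra1 peak in that of replicate 1 alone. Jph3, Cnst, Gm47360 and Pdpn were in neither.

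All 8 bases of the word lay in a footprint in both libraries at Epb41l1, Adgra1 and Arfgef3, and 7 of the 8 did at Jph3. In Cnst and Pdpn the word was in a footprint of replicate 2 and not of replicate 1, and in Gm47360 of replicate 1 and not of replicate 2. Thus the 4 members with the higher values had all or all but 1 base of the word in footprints of both libraries, and the 3 lower members in 1 library each. This split is not particular to the family. Over all members, these 7 included, a footprint anywhere in the peak in both libraries was also more frequent at higher values. The share was 92.3% in the value classes of the 4 higher members and 28.3% in those of the 3 lower ones. The best match to the CTCF consensus was 1 substitution away in 6 of the 7 and 2 away in Cnst. No CpG was present in 6 of the 7, the exception being Cnst. Of the 21 pairs, 20 aligned, at 75.4 to 96.0% identity (median 79.5%) over 25 to 82 bases. Near-identical copies were few: 5 of the 7 had no other place in the reference at 90% identity or more over at least 80% of their length, Cnst had 2 and Gm47360 had 39. At 80% identity the numbers ranged from 0 for Arfgef3 to 621 for Gm47360. The word was chosen after these sequences were seen, so its presence in them is a description.

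**Figure D1:**
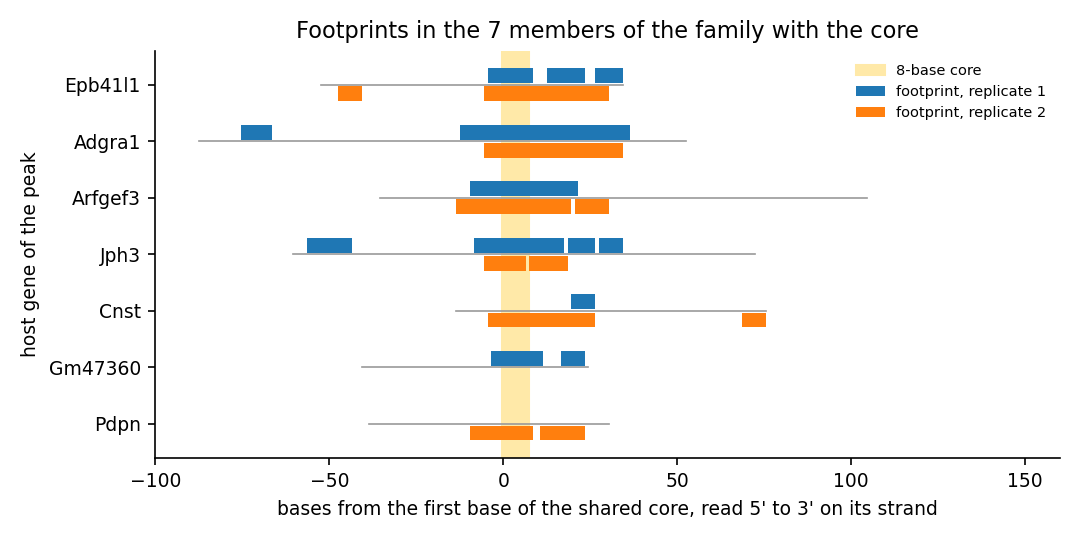
Footprints of both libraries in the 7 members of the family with the 8-base word, by bases from the first base of the word (x axis), with 1 row per member named by its host gene; blue and orange bars are footprints of replicates 1 and 2, the grey line is the peak and the yellow band the word. In the upper 4 rows both colours cover all or all but 1 base of the band, and in the lower 3 rows a single colour does.

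The word TGCCCTCT, searched on both strands of the whole peak, was present in 11 of 148 members (7.43%, 95% interval 3.77 to 12.9%) and in 3.89% of other shared peaks. It overlaps the CTCF consensus. The 11 include the 7 members from which the word was chosen, so the share of members was set in part by that choice. Each 95% interval on a share comes from the exact method of Clopper and Pearson and reflects counting error alone. In 5 of those 11 it lay in a footprint in both libraries. The CTCF consensus itself, written as a 14-base motif and searched on both strands of the 200 bp around the middle of the peak, was found in 0 of 148 members, which allows a share of up to 2.46%, against 4.58% of other shared peaks. With up to 1 substitution, a setting chosen after the data were seen, 11 members (7.43%) and 12.6% of other shared peaks had it. Of these 11 members 6 belonged to the family of 7 and 4 to the largest family. The middle of the match was in a footprint in both libraries in 4 of the 11.

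As a group, the members were lower and narrower than the rest. Their median peak value was 0.410 in replicate 1 and 0.432 in replicate 2, a mean of 0.421 ± 0.0156 (SD, n = 2), against 0.912 ± 0.0688 (SD, n = 2) for the other 55804 shared peaks, a difference far beyond the spread between libraries. The middle 50% of members spanned 0.290 to 0.590 in replicate 1 and 0.301 to 0.620 in replicate 2. The median width was 135.5 bp against 275 bp, and 51 members were under 100 bp long. The mean of both values was over 1 in 16 members (10.8%) and in 45.2% of other shared peaks. Outside promoter windows the gap was smaller, at 0.418 ± 0.0110 (SD, n = 2) for members and 0.733 ± 0.0524 (SD, n = 2) for others.

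Masked sequence was scarce in peaks. Of the genome's bases 36.4% were soft-masked, against 6.66% of the bases in shared peaks. No masked base was found in 27325 shared peaks, and 100 members were masked over every base. The median masked block around the middle of a member was 306 bp long. Other maskings of mm10 can differ from this one (masking program: not given in the sources used here). At the limit, the 5 members masked over exactly 90% had replicate 1 values of 0.0707, 0.219, 0.304, 0.438 and 0.947, and the 3 peaks just outside, masked over 89.6 to 89.8%, had 0.297, 0.615 and 0.685.

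Masked peaks were shared less often than others, and they were also lower. Among all replicate 1 peaks, 59.8% overlapped a replicate 2 peak; among the 838 masked at 90% or more, 148 did (17.7%, 95% interval 15.1 to 20.4%), against 60.2% of the other 92707. From the side of replicate 2, 171 of 677 masked peaks were shared (25.3%) and 72.1% of others. When all replicate 1 peaks were split into 10 equal classes by value, 496 of the 838 fell in the lowest class, where 6.05% of masked and 9.10% of other peaks were shared. In the highest class, 4 of 4 masked and 99.0% of other peaks were. The 95% intervals of masked and other peaks overlapped in 10 of 10 classes, in the lowest class only at their ends (4.12 to 8.52% for masked and 8.51 to 9.72% for other peaks). The 690 masked peaks that were not shared had a median replicate 1 value of 0.205.

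Footprints followed the same course. The middle of at least 1 footprint lay in 90 members in replicate 1, in 81 in replicate 2 and in both libraries in 61 (41.2%, 95% interval 33.2 to 49.6%). Over all shared peaks 71.2% had one in both libraries, so the share of members was below this background. With the same classes joined in 5 pairs, the intervals of members and other shared peaks overlapped in 5 of 5. From the lowest pair to the highest, the shares were 26.7, 28.3, 60.9, 92.3 and 100% of members and 19.6, 42.0, 61.4, 76.4 and 93.5% of others. Members were thus lower in the second pair and higher in the fourth, with 46 and 13 members there. Per kb of peak, members held 6.81 footprints in replicate 1 and 6.90 in replicate 2, and other shared peaks 9.21 and 7.35. Members were lower in both libraries, by unequal amounts, and the other peaks alone varied by 1.32 (SD, n = 2) between libraries. Both stricter peak lists of the authors contained 35 members (23.6%, 95% interval 17.1 to 31.3%), against 55.8% of all shared peaks. Within the same 5 pairs of value classes the shares were 13.3, 13, 34.8, 53.8 and 100% of members and 9.01, 11.1, 25.8, 60.3 and 96.5% of others, with members higher in 4 of the 5 pairs.

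**Figure D2:**
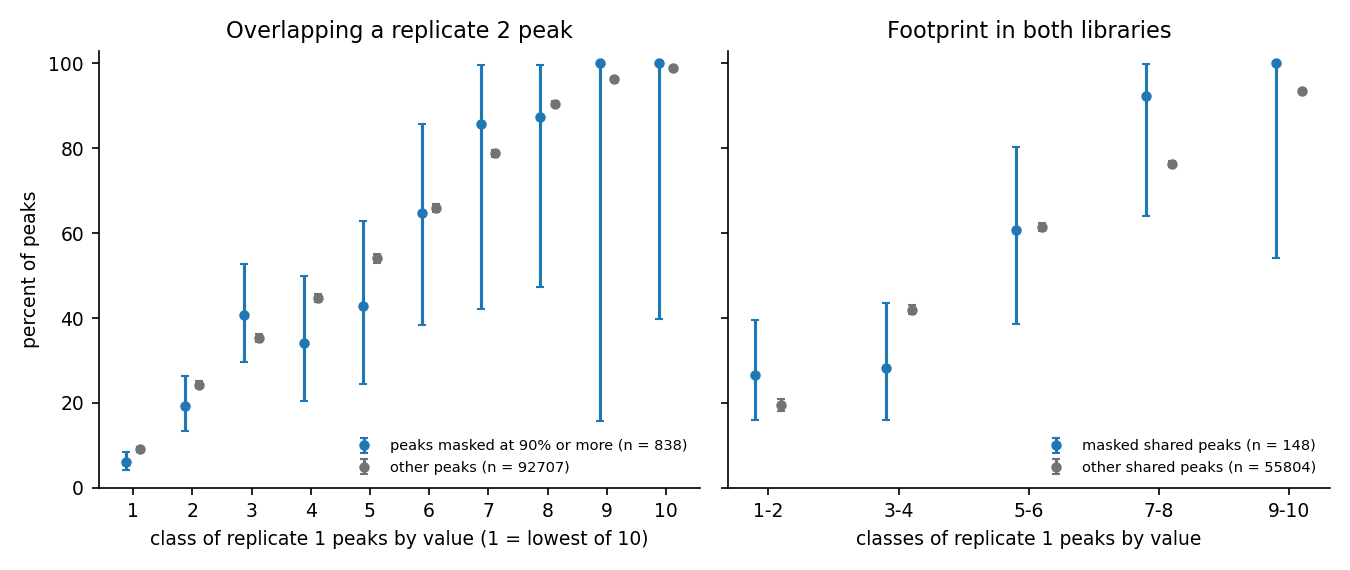
Left, percent of replicate 1 peaks overlapping a replicate 2 peak, by 10 equal classes of replicate 1 value; right, percent of shared peaks with a footprint in both libraries, by 5 pairs of these classes; blue points are masked peaks, grey points others, and bars are exact 95% intervals. For masked peaks on the left the share goes from 6.05% in the lowest class to 4 of 4 peaks in the highest, with a dip from 40.8% in class 3 to 34.1% in class 4.

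Members lay away from genes more than other shared peaks did. By the middle base, 81 were intergenic (54.7%, against 27.6% of other shared peaks), 39 were in introns of protein-coding genes (26.4% against 24.4%), 14 in noncoding genes, 11 within 1 kb of a protein-coding transcription start site (TSS), 2 in untranslated or noncoding exons and 1 in a coding exon. Counted by overlap with that promoter window, the share was 7.43% for members and 38.3% for others. The median distance to the nearest such TSS was 36214 bp for members and 6620 bp for others. Outside promoter windows the medians were closer, at 45447 bp and 30532 bp. Chromosome 8 held 18 members (0.609% of its shared peaks), chromosome 14 held 13 (0.573%), and chromosomes 4 and 11 held 12 each (0.342% and 0.293%). Over all shared peaks the share was 0.265%, so chromosome 11 lay near it. On chromosome Y lay 6 members, among 16 shared peaks there.

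Base composition differed too. Members had a median of 1.54 CpG per 100 bp and other shared peaks 3.03. The median GC content was 51.8% and 55.8%. No CpG was present in 34 members (23.0%) and in 4.62% of others. Outside promoter windows the CpG medians were closer, 1.47 and 1.96 per 100 bp. Perfect tandem runs, with units of 1 to 6 bp and at least 12 bp long, covered at least 50% of the bases in 4 members (2.70%) and in 12 other shared peaks (0.0215%). Simple tandem repeats were thus a small part of the members.

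Most members had relatives elsewhere in the genome. At 90% identity over at least 80% of the length, 113 of 148 had at least 1 other copy in the reference (76.4%, 95% interval 68.7 to 82.9%). Over all 148 members the median was 117 other copies. The highest number was 153829, at chr2:148122397-148122477, 75.5 kb from the Foxa2 start. The 35 members without another copy had a footprint in both libraries in 20 cases (57.1%, 39.4 to 73.7%), and the 113 with copies in 41 cases (36.3%, 27.4 to 45.9%). For the stricter lists the order was the opposite, with 4 of 35 (11.4%, 3.20 to 26.7%) and 31 of 113 (27.4%, 19.5 to 36.6%). The intervals overlapped in both comparisons. Median values were 0.466 and 0.471 in replicates 1 and 2 without copies, and 0.389 and 0.400 with copies.

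**Figure D3:**
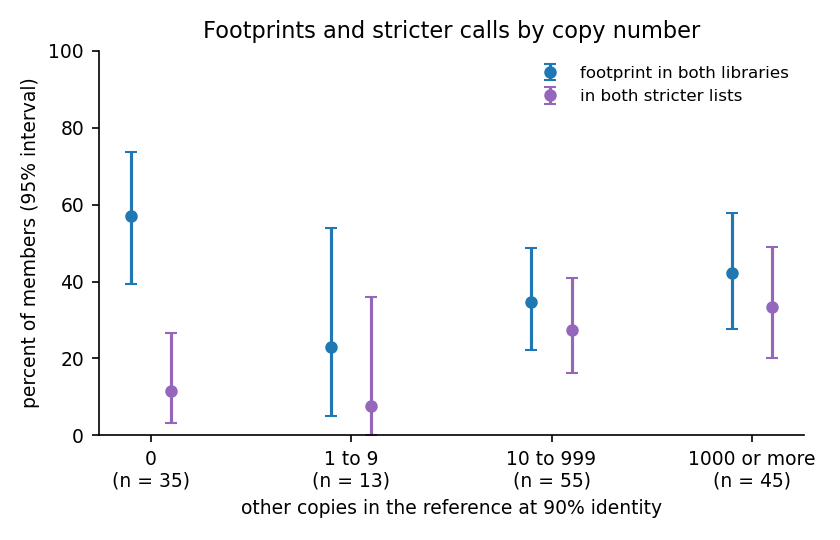
Percent of members with a footprint in both libraries (blue) and in both stricter peak lists (purple), by the number of other copies in the reference at 90% identity, with exact 95% intervals. Members with no other copy had a footprint in 57.1% and a stricter call in 11.4%; with 1000 or more copies the shares were 42.2% and 33.3%.

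Compared with each other, members fell into 15 families of related sequence with 94 members in all, and 54 of the 148 were joined to no other member. A family joined members through alignments that covered 50% or more of the shorter one with 80% identity or more. Such links form chains, so members of a family need not align with each other. The families had 24, 19, 8, 7, 6, 5, 5, 4, 3 and 3 members, and 2 each in the last 5. No annotation of repeat families was used for the whole genome; RefSeq annotates single mobile elements, 1 of which, a 138 bp SINE of type B1_Mus2 at chr7:103823699-103823836, aligned with 18 members at 77.8 to 93.3% identity. B1 is a short element descended from the RNA of the signal recognition particle. Of these 18, 13 were in the family of 24 and the rest were in no family, so members outside the families can still be related to others.

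The family of 24 was linked through chains of alignments, with 111 of its 276 pairs of members aligned. It was spread over 16 chromosomes, with median values of 0.544 in replicate 1 and 0.551 in replicate 2. In 15 of its members there was a footprint in both libraries. Its strongest member was chr15:98710541-98710720 in an intron of Ccdc65, a gene of the ciliary dynein regulatory complex, with values of 1.27 and 1.57 and no other near-identical copy. Shown here with capitals at bases in footprints of both libraries, and with a best match 1 substitution from the CTCF consensus, it reads on the plus strand:
Ccdc65 intron: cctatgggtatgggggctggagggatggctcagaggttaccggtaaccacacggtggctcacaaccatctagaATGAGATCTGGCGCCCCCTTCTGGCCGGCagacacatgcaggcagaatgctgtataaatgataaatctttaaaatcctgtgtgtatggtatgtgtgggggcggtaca
The B1-related members are illustrated by chr11:3138481-3138571 in an intron of Sfi1, which codes for a centrosomal protein. Its values were 1.21 and 1.03, and it aligned with the annotated B1 element at 81.7% identity over 82 bases. Capitals again mark footprints of both libraries:
Sfi1 intron: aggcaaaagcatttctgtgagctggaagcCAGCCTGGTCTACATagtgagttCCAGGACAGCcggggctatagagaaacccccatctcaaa
Sfi1 held 3 members within 33.7 kb, with replicate 1 values of 0.763 to 1.21 and replicate 2 values of 0.851 to 1.03.

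The same family carried most matches to the RUNX motif (TGTGGTT, both strands, 200 bp around the middle). This motif was in 13 members (8.78%, 95% interval 4.76 to 14.6%) and in 3.01% of other shared peaks. Over the whole peak it was in 9 members (6.08%, 2.82 to 11.2%) and in 4.24% of others, which lies within that interval, and in a 100 bp window in 7 members (4.73%, 1.92 to 9.50%) and 1.55% of others. Of the 13 members, 11 belonged to the family of 24, and in 9 of these the motif followed CACC and 1 further base, so these 9 share a longer stretch of sequence and do not count as independent. The other 2 of the family lack this context, and 2 of the 13 lay in no family. Within the peak itself 7 members of the family had it, 2 of them with its middle in a footprint in both libraries and 2 in 1 library. The context is shown by the plus strand of chr16:36817341-36817560 in an intron of Eaf2, a gene of a transcription elongation factor partner, with values of 0.685 and 0.799. It has no other near-identical copy, and no base of it was in a footprint of both libraries, so capitals here mark the RUNX word instead:
Eaf2 intron: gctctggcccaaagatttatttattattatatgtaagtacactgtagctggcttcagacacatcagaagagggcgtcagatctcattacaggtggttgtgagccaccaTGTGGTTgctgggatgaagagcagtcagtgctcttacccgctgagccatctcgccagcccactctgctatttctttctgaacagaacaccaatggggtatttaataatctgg

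Among 18 motifs searched in the same way, the 95% interval of the members held the share of other shared peaks for 14. Besides RUNX and CTCF the exceptions were SP/KLF (GGGCGGGG), in 2.03% of members and 8.03% of others, and NRF1 (GCGCNTGCG), in 0 members and 3.13% of others. In a 100 bp window both exceptions were lost, with SP/KLF in 1.35% (0.164 to 4.80%) and 4.21%, and NRF1 in 0 members (up to 2.46%) and 1.69% of others, while CTCF and RUNX stayed. The words for SP/KLF and NRF1 both contain CpG. The NeuroD-type E-box (CAGATG), of the basic helix-loop-helix factors of excitatory neurons, was in 18.2% and 17.4%, the E-box CAGCTG in 14.9% and 16.7%, and AP-1 (TGANTCA), the motif of activity-induced FOS and JUN proteins, in 3.38% and 5.0%. None of these words contains another. The motif written in reverse order was found in 9.46% of members for CAGATG, 3.38% for AP-1 and 3.38% for RUNX. In other shared peaks the reversed words were in 4.08%, 3.28% and 2.22%.

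**Figure D4:**
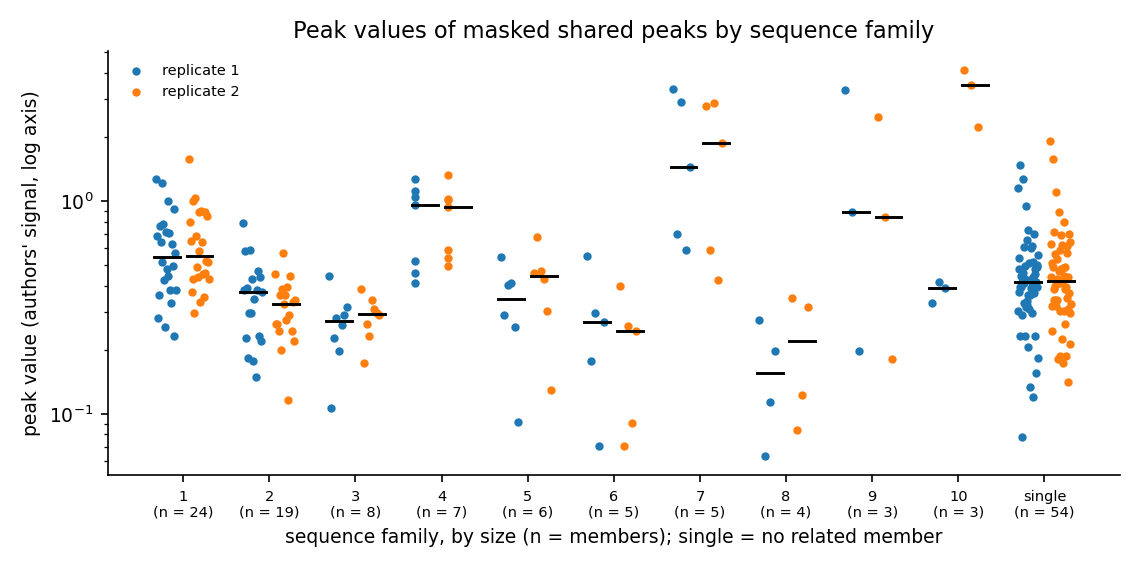
Peak values (log axis) of members in the 10 largest sequence families and of the 54 members in no family, in replicate 1 (blue) and replicate 2 (orange). Each point is a member and black lines are medians. Family 4 is the one with the 8-base word (medians 0.961 and 0.935), family 7 holds the strongest member, and family 10 is at the start of chromosome 9, where the orange points stand apart from the blue ones.

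Families 2 and 3 were weaker. The 19 members of family 2, with 72 of 171 pairs aligned, had medians of 0.375 and 0.329, and a footprint in both libraries in 3. The strongest member of family 2, chr12:36713861-36714140, 332 kb from the D630036H23Rik start, had 0.784 and 0.451. The 8 members of family 3 lay on 8 chromosomes with medians of 0.272 and 0.293, and its strongest member, chr14:48979424-48979489, had 0.445 and 0.387 and 10641 other copies. Family 5, with 6 members, was led by chr4:40356049-40356320 with 0.544 and 0.458 and no other near-identical copy. None of these 3 families had a member in both stricter lists, and 2 members of family 2 lay in promoter windows.

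By the mean of both values, by which members are ranked here, the strongest belonged to a family of 5 rich in CpG, with a median of 5.38 per 100 bp and a GC content of 61.9%. At chr14:93214881-93215120, in an intron of Pcdh9 (a protocadherin of neuronal cell adhesion), the values were 3.37 in replicate 1 and 2.80 in replicate 2. At chr14:53935941-53936220, in the noncoding gene Gm43647, they were 2.92 and 2.89, with 6 and 8 footprints, the highest count of any member. A further member in Gm43647, chr14:53935381-53935640, had 1.44 and 1.87. The other 2, chr14:3116101-3116360 with 0.700 and 0.587 and chr8:5241941-5242200 with 0.587 and 0.425, were lower. All 5 were in both stricter lists and had a footprint in both libraries, and each had 1831 to 2292 other copies in the reference. For 3 of the 5 a reading frame of at least 3000 bp was found within 7 kb of the peak, as for 7 members in all. The Pcdh9 member is shown on the plus strand as the strongest by the mean of both values (in replicate 2 alone 3 members were higher), with capitals at bases in footprints of both libraries:
Pcdh9 intron: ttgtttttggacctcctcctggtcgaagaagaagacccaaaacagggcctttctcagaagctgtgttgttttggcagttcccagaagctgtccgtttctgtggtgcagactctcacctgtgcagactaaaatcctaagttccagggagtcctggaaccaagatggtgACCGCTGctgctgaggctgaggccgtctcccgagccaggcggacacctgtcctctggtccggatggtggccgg

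A family of 3 held the third strongest member, chr10:99339390-99339516 in the noncoding gene B530045E10Rik, with values of 3.31 and 2.48 and 973 other copies. Its relatives were chr4:143988221-143988420 near Pramef17, at 0.890 and 0.844, and chrY:43772333-43772580, at 0.198 and 0.180. All 3 were in both stricter lists and had footprints in both libraries. Their sequences aligned at 95.2 to 98.6% identity although their values lay far apart.

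At the start of chromosome 9, 3 members within 22.4 kb differed between libraries more than any others. At chr9:3002037-3002240 replicate 1 had a value of 0.332 and the library labelled male replicate 2 had 4.12. At chr9:3006800-3006920 they were 0.417 and 3.49, and at chr9:3024321-3024460 they were 0.389 and 2.22. The ratios were 12.4-fold, 8.38-fold and 5.72-fold toward the library labelled male replicate 2. These 3 members are copies of 1 repeat and were singled out because they differ most, so they do not count as independent observations. Another shared peak in the same repeat, at chr9:3000571-3000700, is masked over 87.7% and so no member; its values were close, at 0.587 and 0.651. The reference holds 477 copies of this sequence on chromosome 9, 474 of them in the first 100 kb of assembled sequence, and 16 on chromosome 2, 2 on chromosome 12 and 39 on chromosome 14. Near the 3 members the copies were spaced 234 bp apart, and the major satellite around mouse centromeres is known as a tandem array of a unit of this length. The annotation places predicted genes there (Gm11168, Gm10718, Gm10722 and Gm26870). Over this repeat replicate 1 had 4 peaks and the library labelled male replicate 2 had 14, with medians of 0.403 and 0.677 and highest values of 0.587 and 4.12. The middle member, on the plus strand with capitals at bases in footprints of both libraries, is:
start of chromosome 9: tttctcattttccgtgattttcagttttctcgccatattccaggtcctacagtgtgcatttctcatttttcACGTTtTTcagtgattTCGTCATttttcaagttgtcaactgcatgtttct

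**Figure D5:**
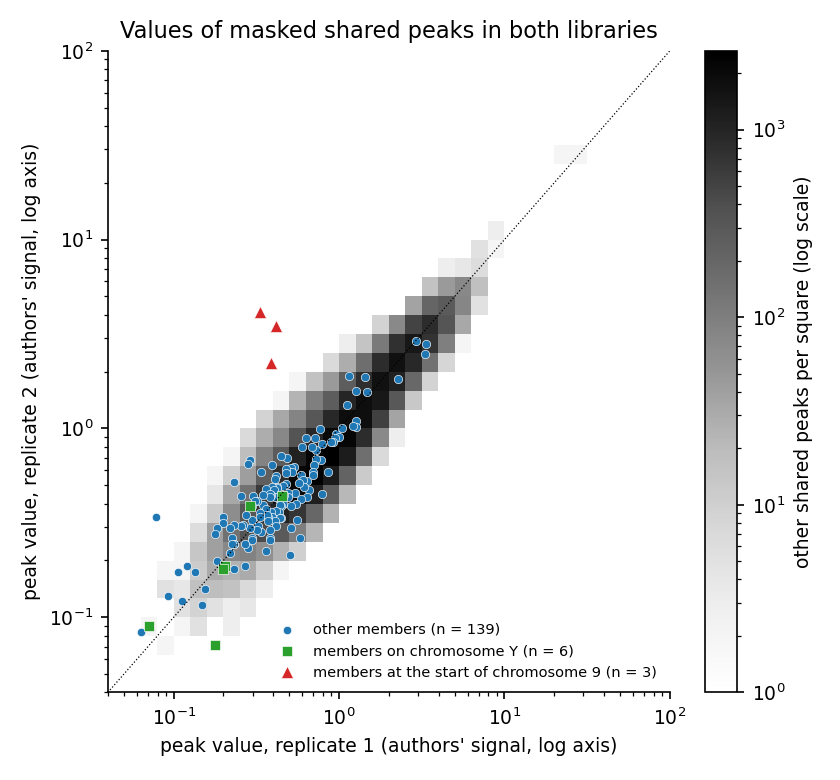
Peak values of members in replicate 1 (x axis) and replicate 2 (y axis), both log axes, over the density of other shared peaks in grey; the dotted line marks equal values. The 3 red triangles at the start of chromosome 9 lie far above the line, and the 6 green squares on chromosome Y lie among the lower members.

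The values differed by over 2-fold in 10 of 148 members (6.76%), against 1.2% of all shared peaks, and 7 of the 10 were higher in the library labelled male replicate 2. Without the 3 members at the start of chromosome 9, 4 were higher there and 3 in replicate 1. The Spearman correlation of the 2 libraries' values over members was 0.789, and 0.823 over the 145 outside the chromosome 9 repeat, against 0.922 over other shared peaks. These are descriptions over peaks that share both libraries. Members had lower values than other shared peaks, and the 2-fold shares and correlations were not compared within classes of value. Whether members differ more than other peaks of the same height was not tested. Outside the repeat the most unequal member was chr16:14051980-14052031 in 2900011O08Rik, with 0.0777 and 0.342. The 6 members on chromosome Y had values of 0.0707 to 0.452 in replicate 1 and 0.0709 to 0.438 in the library labelled male replicate 2, which had no promoter peak at the 4 Y-linked genes above. Each of the 6 had 12 to 1804 other copies in the reference. Whether reads from other copies contributed to them was not tested.

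Tandem arrays of RNA genes held 6 members. On chromosome 8, 51 annotated 5S ribosomal RNA genes, spaced 1698 bp apart, spanned chr8:123538786-123623745, and 4 members lay in or beside this array, 298 to 902 bp from the nearest gene and over none. The strongest, chr8:123617461-123617600, 533 bp from n-R5s146, had values of 2.26 and 1.82, and the other 3 ranged from 0.0919 to 0.791 in replicate 1 and from 0.129 to 0.832 in replicate 2. On chromosome 7, 2 members lay in Snhg14, the imprinted host transcript of a large snoRNA cluster, among 208 annotated snoRNA genes. Their values were 1.48 and 1.57 at chr7:59711801-59712040 and 0.516 and 0.387 at chr7:59768761-59768980. The first had 4 and 6 footprints and 69 other copies, all within 1 Mb and spaced 2529 bp apart. Both leading members are shown on the plus strand, with capitals at bases in footprints of both libraries:
5S rRNA array: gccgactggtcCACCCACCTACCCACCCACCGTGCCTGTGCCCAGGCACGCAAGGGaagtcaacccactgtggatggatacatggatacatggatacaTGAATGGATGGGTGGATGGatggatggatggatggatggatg
Snhg14: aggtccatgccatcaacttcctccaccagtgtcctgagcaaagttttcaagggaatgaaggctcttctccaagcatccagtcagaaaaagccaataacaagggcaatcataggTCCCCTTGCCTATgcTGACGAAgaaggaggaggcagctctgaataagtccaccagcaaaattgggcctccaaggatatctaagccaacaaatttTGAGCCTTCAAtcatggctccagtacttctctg

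Other members gathered in 9 clusters of at least 2 within 100 kb, which held 27 members together with the arrays above. Near Akap1, 4 members within 4.92 kb had replicate 1 values of 0.396 to 1.26. Near Pramef17, of a germ line gene family, 4 within 3.14 kb had 0.367 to 0.890. Near Olfr330, an olfactory receptor gene, 2 within 1.09 kb had 0.424 and 1.15 in replicate 1 and 0.483 and 1.90 in replicate 2. Counted by genes extended by 10 kb, Gm20388, an annotation that spans several genes on chromosome 8, had 6 members, Pramef17 had 4 and Sfi1 had 3, and 5 genes had 2 each.

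Among the stronger members in promoter windows was the chromosome 9 member near Gm10718 given above. Zbed3 had 0.488 and 0.696 at chr13:95324443-95324502. Further members stood at Gm21887, with 0.608 and 0.535 at chrX:170011512-170011836, and Minos1, a mitochondrial inner membrane organiser, with 0.495 and 0.458 at chr4:139131641-139131859. Of the latter 3 only Zbed3 had a footprint in both libraries. Members in promoter windows had a median of 0.445 ± 0.000293 (SD, n = 2) and other shared peaks there 1.49 ± 0.121 (SD, n = 2). Among members with many footprints, chr18:14103181-14103440, 131 kb from the Zfp521 start, had 3 and 5 at values of 0.996 and 0.896.

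The 15 gene lists had no member within 10 kb. They covered brain cell types and neuronal pathways, and also housekeeping, repeat silencing, liver, and lymphocyte and erythroid genes. Of 205 listed genes, 0 had a member within 10 kb of the gene, while 75 of 21911 protein-coding genes did (0.342%). At that rate fewer than 1 of the 205 would have one, so the count does not set the lists apart. Within 50 kb, 1 listed gene, the microglia gene Trem2, had a member, at chr17:48327098-48327160, 19.2 kb away, with values of 0.424 and 0.490, while 209 of 21911 protein-coding genes had one.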

How the data were processed

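DNase-seq cuts accessible DNA with DNase I and maps the cuts. The authors deposited, for each of 2 libraries of 1 group, a longer and a stricter peak list, footprints and runs of bases with a low false discovery rate, all on mm10 and from that library's own alignments, per the file headers. The value of a peak is the authors' deposited signal (scaling, peak caller and aligner: not given in the sources used here). Of each library, the deposited p-value column of the false discovery runs (0.05 or below) and of the footprints was used for positions alone, and the depth is unknown.

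Members were found by the rule with interval code written for the purpose and checked against bedtools 2.31.1 on simulated intervals. The soft-masking was that of the GRCm38.p6 RefSeq genome, and a member's replicate 2 value is that of the highest overlapping peak. Copies were searched with blastn 2.17.0 (word size 16). Genes are those of GENCODE M21. With 2 libraries of 1 group no test over samples was possible. Values carry the SD over libraries, and shares carry exact 95% binomial intervals, which treat members as independent although relatives share sequence. Members, motifs and gene lists were chosen with earlier results of these data known. Named members were the 10 strongest, the 5 strongest in promoters (1 of them is not reported here), the 5 strongest without a copy outside promoters, the 5 with most footprints, the strongest of the 5 largest families, the strongest within 10 kb of each gene list, and the 5 genes with most members; their relatives, extremes and further examples were chosen after their values were seen. The steps were tested on simulated data. Alternatives covered the masked share, overlap, peak list, library, promoter window, identity, motif window and gene distance.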

Additional observations from a re-analysis of the deposited data

How the results depend on the processing

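Of 73 alternative values, 38 stayed within the error of the reported value and 35 did not. With at least 50% of the peak masked there were 856 peaks, with a CpG median of 1.28 per 100 bp, a peak value of 0.541, a footprint in both libraries in 51.4%, sharing of 26.6% and another copy in 28.5%. With every base masked the CpG median was 1.63, the peak value 0.391 and the share with another copy 90%. A reciprocal overlap of 50% left 90 peaks, a value of 0.438 and sharing of 10.7%. The authors' stricter lists gave 42 peaks at 0.690. Members without another copy had a value of 0.468, 11.4% in both stricter lists, footprints in 57.1% and 0.943 CpG per 100 bp. Copies at 80% and 95% identity were found for 93.9% and 61.5%, and families at 90% identity held 56 members. A promoter window of 500 bp held 2.03% of members, and members taken from replicate 2 had a CpG median of 1.45. With either library left out, the number of peaks ranged from 677 to 838, the value from 0.226 to 0.245, CpG from 0.826 to 0.906, footprints from 54.7 to 60.8% and the stricter list from 33.1 to 35.1%, since all masked peaks of 1 library then counted or 1 library alone was read. The alternatives chosen after seeing the data were the CTCF match with 1 substitution (7.43% of members), the members without chromosome 9 or chromosome Y repeats, which left all 7 values within error, and no others. Within 50 kb, 1 listed gene had a member. No paired analysis was possible because the 2 replicate numbers belong to 1 group.

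The depth behind a peak is unknown, and the treatment of reads that map to several copies was not stated in these sources, so a low or missing peak in a repeat is not shown to be closed chromatin.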
